A study of Mus musculus with 4 samples.

Results

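The genes of cholesterol synthesis, cholesterol uptake and the SREBP2 control of both were followed in mouse liver during feeding with the HFHS diet, which is high in fat and sucrose. The list holds 30 genes, each found by its gene name among the non-control spots of the arrays, with 43 of the 55681 probes and 30 of the 34743 genes read. The arrays cover livers of male C57BL/6 mice, an inbred laboratory strain, after 0, 5, 10 and 15 weeks of the HFHS diet, with 1 array for each time. The diet began at 5 weeks of age, so the animals were 5, 10, 15 and 20 weeks old, and the 0-week array stands for mice that had not yet eaten it. The design text names 4 mice at each time and does not say whether the RNA of an array came from 1 mouse or from a pool. Older animals had also eaten the diet for longer, so age and diet cannot be told apart. No difference between times has a replicate check, and no test was made of any.

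Hepatocytes make cholesterol from acetyl-CoA. The mevalonate steps join acetyl groups, the isoprenoid steps build farnesyl diphosphate, and squalene synthesis commits that intermediate to sterols, which a chain of membrane enzymes trims to cholesterol. The transcription factor SREBP2 switches this set of genes on. The escort protein SCAP carries it from the endoplasmic reticulum when membranes hold little sterol, and the INSIG proteins keep it there when sterol is plentiful. Cholesterol that enters a cell through lysosomes leaves them with the help of the NPC proteins, and SOAT enzymes store the excess as esters.

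Signals are given as the processed fluorescence of a probe divided by the 75th percentile of its array, a unitless value that can be set beside other times of the same probe but not beside another probe. Between 44.5% and 48.3% of non-control spots were well above background on the 4 arrays, with 0 saturated spots. Probes printed at 10 spots had a median log2 SD between 0.0646 and 0.0743 within an array, a figure that holds no spread between animals. Albumin (Alb), a defining hepatocyte marker, read 3110, 2210, 2890 and 1660 at 0, 5, 10 and 15 weeks. Of 9 listed hepatocyte markers on the arrays, 8 were well above background at each time and Serpina1b at none. A comparison measured a gene if both arrays read its brightest probe well above background, and called it higher or lower from 2-fold on. The median measured gene stood at -0.02, -0.01 and -0.25 on the log2 scale at 5, 10 and 15 weeks against 0 weeks, so each gene group's median is given after subtracting that of all genes measured, as a relative median.

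Part of the cholesterol pathway was at least 2-fold higher at each later time than at 0 weeks. Insig2 was lower at 10 weeks and Npc1 at 15 weeks, though Npc1 fell under 2-fold with other scalings. The other measured genes were within 2-fold. At 5 weeks against 0 weeks, 6 of the 29 members measured were 2-fold higher or more and 0 lower, where 2.31% of all 17093 measured genes were higher and 1.56% lower. The 6 were Sqle, Cyp51, Idi1, Fdps, Stard4 and Nsdhl. At 10 weeks against 0 weeks, 7 were higher and 1 lower, where 2.92% of all 17141 genes were higher and 1.53% lower, and Aacs and Acat2 joined the higher genes while Idi1 was within 2-fold. At 15 weeks against 0 weeks, 5 were higher and 1 lower, where 5.76% of all 17560 genes were higher and 5.03% lower. Sqle, Cyp51, Fdps and Nsdhl were higher in all 3 comparisons, which share the 0-week array. The median of the measured members relative to all genes was 0.27, 0.24 and 0.23 on the log2 scale at 5, 10 and 15 weeks, and as scaled it was -0.02 at 15 weeks.

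The split of higher and lower genes depended on the scaling. At 10 weeks against 0 weeks, 65.5% of all called genes were higher as scaled and 54.3% with scaling to the array median, and the members had 7 higher and 1 lower as scaled, and 5 higher and 1 lower with the array median. At 15 weeks against 0 weeks, 53.4% of all called genes were higher as scaled, 71.2% with the 75th percentile of detected probes and 86.4% with spike-in scaling. The members had 5 higher and 1 lower as scaled, 6 higher and 0 lower with the detected probes, and 7 higher and 0 lower with the spike-ins.

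**Figure D1:**
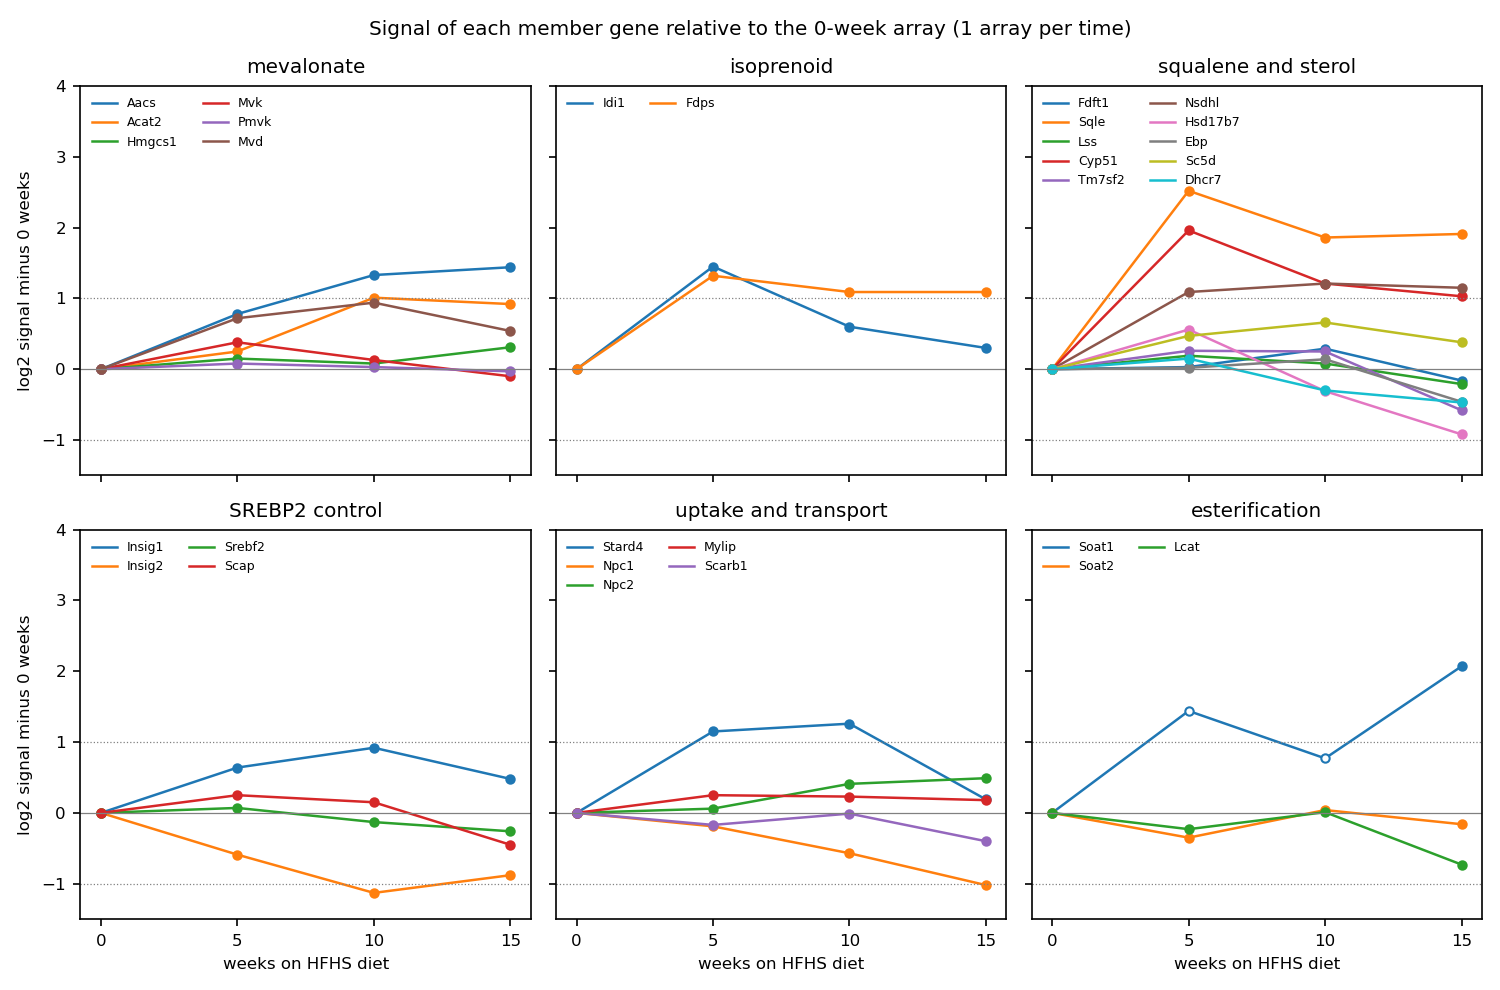
Log2 signal minus the 0-week value (y axis) against weeks on the HFHS diet (x axis) for the 30 genes in 6 panels by pathway segment, with 1 array per time. Filled points are well above background, open points are not (Soat1 at 5 and 10 weeks, and also at 0 weeks, where other points cover it), and dotted lines mark 2-fold. Sqle reaches 2.52 at 5 weeks, the highest point of any panel, and Insig2 lies lowest, at -1.14 at 10 weeks.

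**Figure D2:**
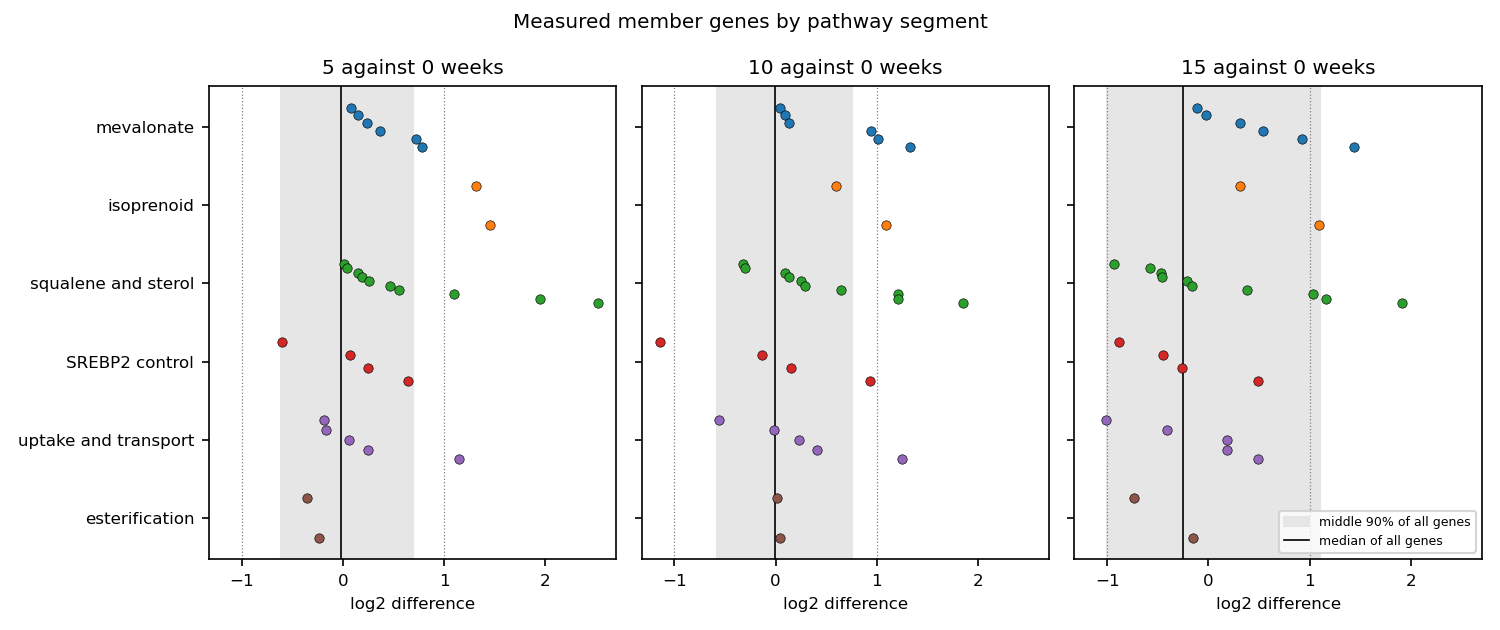
Log2 difference of each measured gene at 5, 10 and 15 weeks against 0 weeks (x axis) by pathway segment (rows), 1 point per gene. The grey band holds the middle 90% of all measured genes, the black line their median, and dotted lines mark 2-fold. Both isoprenoid genes lie beyond 2-fold at 5 weeks, while the esterification genes stay within the band at all 3 times.

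In the mevalonate segment the 2 enzymes that supply acetoacetyl-CoA were the ones that passed 2-fold, and the kinases were nearly level. None of the 6 genes was 2-fold different at 5 weeks, 2 were higher at 10 weeks and 1 at 15 weeks, with relative medians of 0.33, 0.54 and 0.68 on the log2 scale. Aacs, the cytosolic ligase that turns acetoacetate into acetoacetyl-CoA, read 2.28, 3.92, 5.72 and 6.19 at 0, 5, 10 and 15 weeks (probe at chr5:125997524-125997583, build mm9). Each later value of Aacs was above the one before it. Against 0 weeks it was 1.72-fold higher at 5 weeks, 2.51-fold at 10 weeks and 2.71-fold at 15 weeks.

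Acat2, the cytosolic thiolase that joins a pair of acetyl-CoA molecules, read 38.2, 45.2, 76.8 and 72.0 at 0, 5, 10 and 15 weeks (probe at chr17:13136482-13136541). It was thus low at the first 2 times and high at the last 2, with 2.01-fold at 10 weeks and 1.89-fold at 15 weeks against 0 weeks. The 10-week value fell under 2-fold with the array median, quantile normalization and spike-in scaling, at 0.91 on the log2 scale at the lowest. The 15-week value (log2 0.92) passed 2-fold with 4 other settings, at 1.12 for the detected probes, 1.30 for quantile normalization, 1.33 after normexp and 1.42 by the spike-ins. Mouse Acat3 is a close relative, so the probe may share signal and the value is uncertain.

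Hmgcs1, the HMG-CoA synthase, read 31.9, 35.5, 33.9 and 39.6 at 0, 5, 10 and 15 weeks. Its highest value was 1.24-fold above 0 weeks, at 15 weeks (log2 0.31), and the mean with its other probe, which was not well above background, was -0.72 there. Mvk, the mevalonate kinase, read 8.9, 11.5, 9.72 and 8.27, with its highest value at 5 weeks (1.29-fold). Pmvk, the phosphomevalonate kinase, was the most level, at 28.0, 29.6, 28.7 and 27.5. Mvd, the decarboxylase that ends the segment, read 0.579, 0.95, 1.11 and 0.843. Mvd was above its 0-week value at all 3 later times, by 1.64-fold, 1.91-fold and 1.46-fold, and stayed within 2-fold.

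Both isoprenoid genes were at least 2-fold higher at 5 weeks, with a relative median of 1.41 on the log2 scale, and 0.86 and 0.95 at 10 and 15 weeks. Idi1, the isomerase of isopentenyl diphosphate, read 3.55, 9.72, 5.4 and 4.39 at 0, 5, 10 and 15 weeks (probe at chr13:8891524-8891583). The 5-week array stood apart, at 2.74-fold above 0 weeks (log2 1.45), and the 15-week value was 2.21-fold lower than the 5-week value. Fdps, the farnesyl diphosphate synthase, read 7.01, 17.6, 15.0 and 14.9 (probe at chr3:88897549-88897608). All 3 later arrays of Fdps were high, at 2.5-fold, 2.13-fold and 2.13-fold above 0 weeks. The 10-week difference of Fdps was 0.99 on the log2 scale with the array median, just under 2-fold.

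The squalene and sterol segment held the largest differences of the pathway beside genes that were nearly level. Of its 10 genes, 3 were higher and 0 lower at each of 5, 10 and 15 weeks, with relative medians of 0.38, 0.28 and 0.07 on the log2 scale. Sqle, the squalene epoxidase, an oxygen-dependent step regarded as rate-limiting, read 0.82, 4.7, 2.97 and 3.08 at 0, 5, 10 and 15 weeks (probe at chr15:59162688-59162747). Only the 0-week array was below 1. Against 0 weeks Sqle was 5.73-fold higher at 5 weeks (log2 2.52), 3.62-fold at 10 weeks and 3.75-fold at 15 weeks. Its 5-week difference had rank 22 from the highest among 17093 measured genes.

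Cyp51, the cytochrome that demethylates lanosterol, read 0.179, 0.696, 0.416 and 0.367 at 0, 5, 10 and 15 weeks (probe at chr5:4081471-4081530). It was lowest at 0 weeks and highest at 5 weeks, with 3.88-fold at 5 weeks, 2.32-fold at 10 weeks and 2.04-fold at 15 weeks against 0 weeks. With normexp background correction these were 1.09, 0.57 and 0.48 on the log2 scale for this dim probe, so the differences at 10 and 15 weeks fell under 2-fold. Nsdhl, the dehydrogenase of sterol demethylation at carbon 4, read 0.38, 0.812, 0.881 and 0.848 (probe at chrX:70202803-70202862). The 3 later arrays lay close together, 2.14-fold, 2.32-fold and 2.23-fold above 0 weeks. The other probe of Nsdhl differed by 0.78, 0.49 and 0.44 on the log2 scale, each under 2-fold. On the 0-week array 5 of the 44 spots around the one used were bright, meaning over 1 log2 unit above their own median of the 4 arrays. Around the spot of the other probe, 8 of 44 were bright on the 5-week array.

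The other sterol enzymes stayed within 2-fold at every time against 0 weeks. Sc5d, the lathosterol desaturase, read 41.2, 56.9, 64.7 and 53.6 at 0, 5, 10 and 15 weeks, highest at 10 weeks (1.57-fold). Hsd17b7, the sterol ketone reductase, read 5.63, 8.3, 4.53 and 2.96. It was highest at 5 weeks and lowest at 15 weeks, and the 15-week value was 2.8-fold lower than the 5-week value. Tm7sf2, a sterol reductase of the nuclear envelope and endoplasmic reticulum, read 74.5, 89.5, 88.3 and 49.8, with the 15-week array alone below 0 weeks (1.5-fold lower).

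Dhcr7, which makes cholesterol from 7-dehydrocholesterol, read 1.96, 2.18, 1.59 and 1.41 at 0, 5, 10 and 15 weeks. Fdft1, the squalene synthase, read 8.33, 8.54, 10.2 and 7.47, and Lss, the lanosterol synthase, read 0.887, 1.01, 0.942 and 0.769. As scaled, neither gene differed from 0 weeks by more than 1.22-fold. The 15-week difference of Fdft1 (log2 -0.16) was 0.53 as the mean with its other probe, which was not well above background. It was also above 0 with the detected probes (0.04), quantile normalization (0.02), normexp (0.01) and the spike-ins (0.35). That of Lss (log2 -0.21) was 0.30 with the spike-ins. Ebp, the sterol isomerase, read 431, 436, 473 and 313, lowest at 15 weeks (1.38-fold lower, log2 -0.46), where its spot had 6 of 44 neighbours bright. That direction turned with the scaling, to 0.04 with quantile normalization, 0.03 with normexp and 0.04 with the spike-ins.

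Among all 18 genes of the 3 synthesis segments, 18 stood above the median measured gene at 5 weeks, 16 at 10 weeks and 14 at 15 weeks. None of the 18 was highest at 0 weeks once each array was centred on its median gene. Of the 18, 10 were highest at 5 weeks, 5 at 10 weeks and 3 at 15 weeks. Of all 16684 genes above background on the 4 arrays, 31.1% were highest at 0 weeks and 25.9% at 5 weeks.

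Promoters are shown for 5 members with different courses, since SREBP2 acts at promoters together with the factor NF-Y, whose site is the letters CCAAT. RefSeq promoters (GRCm38.p6) were matched for 23 of 30 members, at the most upstream start where a gene had several. Fdft1, Fdps, Npc1, Scarb1, Soat2, Sqle and Stard4 have no entry. Each line gives the 150 bases before the start, with CCAAT on either strand (ATTGG on the strand printed where it lies on the other) and TCACNCCAC, a form of the sterol regulatory element, in capitals. Cyp51, Idi1 and Nsdhl were at least 2-fold higher at 5 weeks, Hmgcs1 was nearly level and Insig2 was lower at 10 weeks. The windows lie at chr5:4104698-4104847 (minus strand) for Cyp51, chr13:8885456-8885605 (plus) for Idi1, chrX:72918371-72918520 (plus) for Nsdhl, chr13:119690201-119690350 (plus) for Hmgcs1 and chr1:121332590-121332739 (minus) for Insig2.
Cyp51: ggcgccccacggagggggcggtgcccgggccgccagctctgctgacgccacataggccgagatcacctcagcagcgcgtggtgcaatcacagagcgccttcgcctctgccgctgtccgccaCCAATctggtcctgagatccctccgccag
Idi1: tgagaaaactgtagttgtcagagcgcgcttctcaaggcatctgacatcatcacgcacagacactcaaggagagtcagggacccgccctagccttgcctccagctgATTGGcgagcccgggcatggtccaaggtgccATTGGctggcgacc
Nsdhl: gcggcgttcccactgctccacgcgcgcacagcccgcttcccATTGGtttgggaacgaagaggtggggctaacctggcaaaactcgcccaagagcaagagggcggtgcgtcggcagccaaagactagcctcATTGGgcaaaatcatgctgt
Hmgcs1: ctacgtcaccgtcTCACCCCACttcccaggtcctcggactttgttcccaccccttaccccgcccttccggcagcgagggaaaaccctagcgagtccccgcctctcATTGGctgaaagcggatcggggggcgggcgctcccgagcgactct
Insig2: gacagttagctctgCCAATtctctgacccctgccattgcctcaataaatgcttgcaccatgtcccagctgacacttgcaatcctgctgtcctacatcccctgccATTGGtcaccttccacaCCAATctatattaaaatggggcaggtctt

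Over the 250 bases before the start, CCAAT on either strand was present in 19 of 23 member promoters (82.6%), in 33.8% of all 32851 promoters in the table and in 35.9% of the promoters of genes above background on all arrays. It was present in promoters of genes that were higher, level and lower, as the printed lines show. TCACNCCAC on either strand was present in 1 of 23 member promoters, that of Hmgcs1, and in 1.05% of all promoters. GGGCGG, the Sp1 site, on either strand was present in 17 of 23 (73.9%), in 32.7% of all promoters and in 56.5% of those of genes above background. A match is a run of letters and not a measured binding site.

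Among the control genes, the pair of INSIG genes differed from 0 weeks in opposite directions, while Srebf2 and Scap were within 2-fold at every time, as Insig1 also was. Insig1, a retention protein that is itself an SREBP target, read 0.862, 1.35, 1.64 and 1.21 at 0, 5, 10 and 15 weeks. It was above 0 weeks at all 3 later times, by 1.56-fold, 1.9-fold and 1.4-fold, within 2-fold. Insig2, the second retention protein, read 174, 115, 79.1 and 94.4 (probe at chr1:123201085-123201144). All 3 later values were below 0 weeks, by 1.51-fold, 2.2-fold and 1.85-fold.

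The other Insig2 probe gave -0.53, -1.09 and -0.81 on the log2 scale at 5, 10 and 15 weeks against 0 weeks, beside -0.6, -1.14 and -0.88 for the brightest. On the 5-week array 11 of the 44 spots around the brightest probe were bright. Srebf2, the gene of SREBP2, read 0.907, 0.952, 0.831 and 0.755, at most 1.2-fold from 0 weeks. Scap read 79.3, 94.2, 87.9 and 58.0, with the 15-week array lowest (1.37-fold lower, log2 -0.45, and 0.05 with spike-in scaling). The relative median of the 4 control genes was 0.18, 0.02 and -0.11 on the log2 scale at 5, 10 and 15 weeks.

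The uptake and transport genes had different courses, with 1 of 5 at least 2-fold higher at 5 and at 10 weeks and 1 lower at 15 weeks. Stard4, a cytosolic carrier of cholesterol whose gene is an SREBP2 target, read 2.88, 6.37, 6.85 and 3.26 at 0, 5, 10 and 15 weeks (probe at chr18:33361181-33361240). The arrays of 5 and 10 weeks were high and those of 0 and 15 weeks low. Stard4 was 2.21-fold higher at 5 weeks and 2.38-fold at 10 weeks against 0 weeks, and 2.1-fold lower at 15 weeks than at 10 weeks. Its other probe differed from 0 weeks by 1.04, 1.09 and -0.11 on the log2 scale at 5, 10 and 15 weeks.

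Npc1, the lysosomal membrane protein that exports cholesterol, read 7.83, 6.88, 5.3 and 3.88 at 0, 5, 10 and 15 weeks (probe at chr18:12349340-12349399). Each value was below the one before it, and at 15 weeks it was 2.02-fold lower than at 0 weeks. That difference of -1.01 on the log2 scale was -0.76 relative to the median gene and -0.51 with spike-in scaling. It was under 2-fold in 5 of 10 other settings, those of the array median, detected probes, quantile normalization, normexp and spike-ins. The remaining settings could not change the value, since Npc1 has 1 probe, read from 1 spot above background on all arrays. Npc2, the soluble lysosomal partner of NPC1, read 13.9, 14.5, 18.6 and 19.6, with the last 2 arrays highest (1.33-fold and 1.4-fold above 0 weeks).

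Mylip, the ubiquitin ligase that degrades lipoprotein receptors, read 2.07, 2.47, 2.43 and 2.35 at 0, 5, 10 and 15 weeks, with 7 of 44 surrounding spots bright at 5 weeks. The mean with its other probe, not well above background at 0 and 5 weeks, gave 1.02 at 5 weeks and 1.10 at 10 weeks on the log2 scale. Scarb1, the receptor that takes up cholesterol from high-density lipoprotein, read 24.8, 22.1, 24.6 and 18.7, lowest at 15 weeks (1.33-fold lower, log2 -0.41). Its other probe differed by 0.02 there, so the 2 probes do not give the same direction, and the brightest probe stood at 0.10 with spike-in scaling. The relative median of the 5 genes was 0.08, 0.24 and 0.43 on the log2 scale at 5, 10 and 15 weeks.

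The measured esterification genes stayed within 2-fold. Soat2, the sterol acyltransferase of hepatocytes, read 22.1, 17.4, 22.8 and 19.9 at 0, 5, 10 and 15 weeks, with no order in time. Lcat, the plasma enzyme that esterifies cholesterol on lipoproteins, read 61.0, 52.0, 61.4 and 36.8, lowest at 15 weeks (1.66-fold lower). Soat1, the acyltransferase of macrophages and many other cells, was not well above background at 0, 5 and 10 weeks and was at 15 weeks, with signals of 0.0347, 0.0938, 0.0592 and 0.146. At 15 weeks Soat1 was 1.75-fold above the lowest signal well above background on the 0-week array. That is a rough limit and not a strict one. At 5 weeks Soat1 (log2 -3.41) lay above the lowest such signal of its array (-3.44) and was still not well above background.

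Between successive later times few members differed 2-fold. At 10 weeks against 5 weeks 0 of 29 did, where 0.953% of all measured genes were higher and 1.13% lower. At 15 weeks against 10 weeks 0 were higher and 1 was lower (Stard4), where 3.95% of all genes were higher and 4.06% lower. At 15 weeks against 5 weeks 0 were higher and 2 were lower (Idi1 and Hsd17b7), where 4.07% of all genes were higher and 4.3% lower. The relative medians of all members in these 3 comparisons were -0.04, 0.01 and -0.07 on the log2 scale. The median gene itself stood at 0.02, -0.24 and -0.21. Relative to it, Stard4 stood at -0.83 and Idi1 at -0.93, both under 2-fold, and Hsd17b7 at -1.27. Other settings were not run for these 3 comparisons.

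More than 1 probe was present for 12 members and gave 29 pairs of differences against 0 weeks, from 9 genes, with both probes well above background. The median gap between the probes of a gene was 0.13 on the log2 scale, and 22 of the 29 gaps were under 0.3. The largest gap was 1.44, for the probe of Hsd17b7 designed to an Ensembl transcript, which read -0.88 at 5 weeks against 0 weeks beside 0.56 for the brightest probe and 0.61 for the remaining one. The gaps of Nsdhl at 10 and 15 weeks were 0.72 each, that of Scarb1 at 15 weeks was 0.43 and that of Srebf2 at 5 weeks 0.32. In 5 of the 29 pairs the probes had opposite signs.

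**Figure D3:**
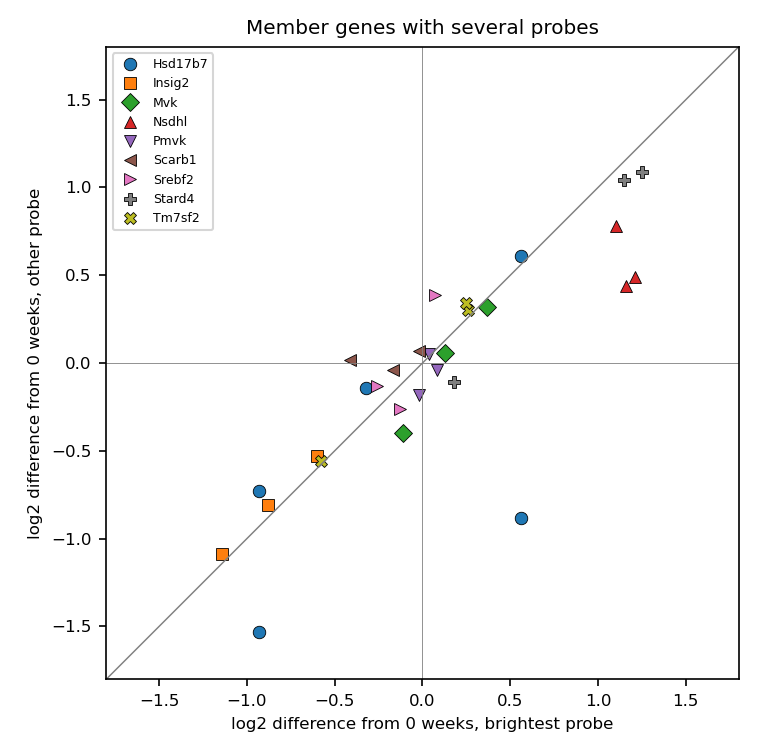
Log2 difference from 0 weeks of the brightest probe (x axis) and of another probe of the same gene (y axis), for 9 genes with several probes well above background at 5, 10 or 15 weeks. The line marks equal values. Of 29 points 22 lie within 0.3 of it, and the farthest is 1 probe of Hsd17b7 at 5 weeks, with a gap of 1.44.

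**Figure D4:**
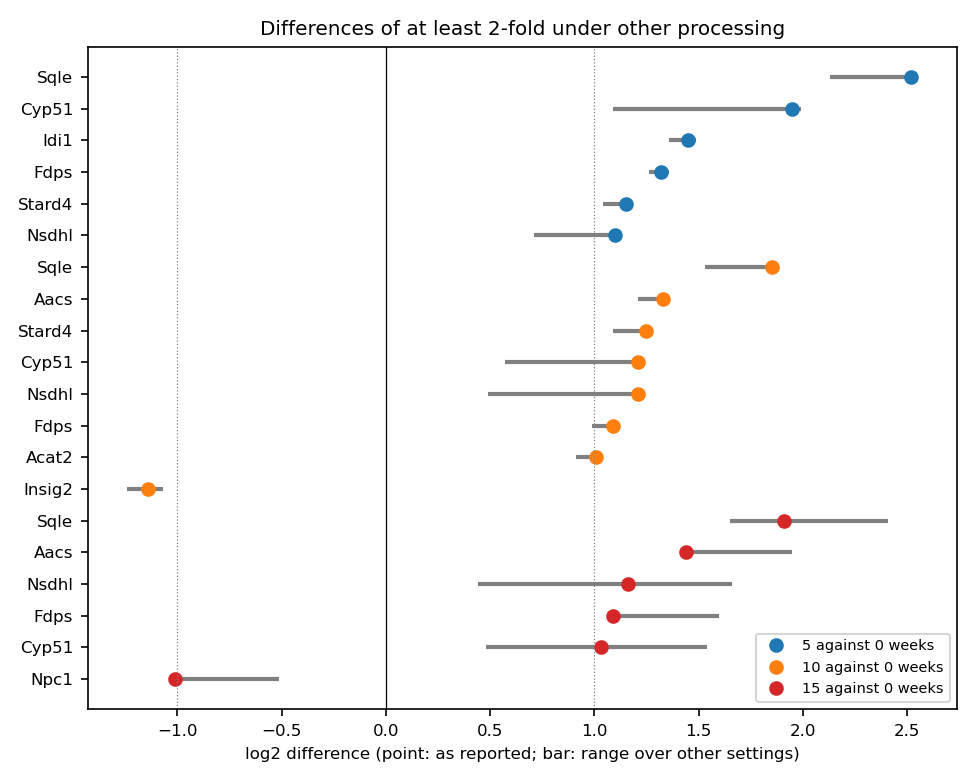
Log2 differences of the 20 cases in which a member was at least 2-fold different from 0 weeks. Points are the values as reported, bars span the values under the other settings, and dotted lines mark 2-fold. No bar crosses 0, and those of Cyp51, Nsdhl and Npc1 reach furthest inside 2-fold.

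Other genes of sterol handling were mostly within 2-fold. Of 26 measured among 27, 0 were higher and 1 lower at 5 weeks, 0 and 1 at 10 weeks, and 2 and 1 at 15 weeks, with relative medians of -0.01, 0.07 and 0.07 on the log2 scale. Msmo1, within 2-fold, was chosen for naming after its values were seen. Msmo1, the sterol methyl oxidase that works just before Nsdhl, read 7.98, 15.9, 12.6 and 8.95 at 0, 5, 10 and 15 weeks, with its highest value at 5 weeks (log2 0.99).

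Vldlr, the receptor of very-low-density lipoprotein, was the gene that was lower at all 3 later times. It read 2.28, 0.473, 0.51 and 1.02 at 0, 5, 10 and 15 weeks, and differed from 0 weeks by -2.27, -2.16 and -1.16 on the log2 scale. The genes higher at 15 weeks were Abcg1, a cholesterol exporter of macrophages and other cells, at 1.31 on the log2 scale, and Gramd1b, which moves cholesterol from the plasma membrane to the endoplasmic reticulum, at 1.07. Ch25h, which makes 25-hydroxycholesterol, was well above background at 15 weeks alone. It was there 6.86-fold above the lowest signal well above background on the 0-week array, a rough limit.

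Genes driven by SREBP1, the lipogenic relative of SREBP2, had 1 of 10 higher at 5 weeks, 3 at 10 weeks and 4 at 15 weeks. At all 3 times 0 were lower. Their relative medians were 0.08, 0.03 and 0.73 on the log2 scale. Srebf1 read 0.69, 1.03, 1.71 and 1.89 at 0, 5, 10 and 15 weeks, and the fatty acid synthase Fasn read 0.745, 0.723, 0.601 and 1.68. The desaturases also passed 2-fold, with Scd1 at 0.49, 1.15 and 1.26 on the log2 scale at 5, 10 and 15 weeks against 0 weeks, Fads2 at 1.11, 1.08 and 0.63, and Fads1 at 1.1 at 15 weeks. Fads2 was thus highest on the 5-week array and Srebf1, Scd1, Fads1 and Fasn on the 15-week array.

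Clock genes differed between the same arrays, and the time of day of sampling is not given in the labels. Dbp, a clock output factor, differed from 0 weeks by 2.02, 2.39 and 0.43 on the log2 scale at 5, 10 and 15 weeks. Nr1d1, a clock repressor, read 1.25, 3.76, 3.08 and 1.52 at 0, 5, 10 and 15 weeks. Arntl, which peaks in the opposite phase, read 2.94, 1.14, 0.946 and 2.19. The arrays of 5 and 10 weeks were therefore high in Dbp and Nr1d1 and low in Arntl, the same arrays on which Stard4 was high. Stard4 was not alone in this. Msmo1, Mvd and Insig1 also read higher at 5 and 10 weeks than at 0 and 15 weeks, within 2-fold of 0 weeks, and Vldlr read lower. Other genes, such as Aacs and Npc2, were highest at 15 weeks. At 15 weeks these clock genes were within 2-fold of 0 weeks, and Sqle, Fdps, Nsdhl, Cyp51 and Aacs were at least 2-fold higher than at 0 weeks. Nsdhl and Cyp51 fell under 2-fold there in some settings. Of 8 measured clock genes, 2 were higher and 1 lower at both 5 and 10 weeks, and 0 at 15 weeks. Their part in the cholesterol genes was not tested.

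Cell type markers also differed between the arrays, and fewer cells of a type cannot be told apart from less RNA per cell. A summed signal adds unlike probes, so it mostly follows the brightest ones of its list and does not measure a cell type. Of 15 macrophage and Kupffer cell markers, 6 were higher at 5 weeks and 13 at both 10 and 15 weeks, and 0 were lower at any time, and their summed signal was 163, 289, 359 and 443 at 0, 5, 10 and 15 weeks. Cd68, a lysosomal protein of macrophages, differed from 0 weeks by 1.21, 1.34 and 2.39 on the log2 scale. At 15 weeks the 15 markers lay between 0.58 (Clec4f) and 4.99 (Cx3cr1). Of the genes of cholesterol handling, Soat1, Npc2 and Abcg1 were highest on the 15-week array, as the summed markers were. Others were below 0 weeks there, with Npc1 at -1.01, Apoe at -0.43, Nceh1 at -0.24, and Abca1 and Lipa at -0.18 each. The median gene stood at -0.25 on the same log2 scale.

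Of 8 measured hepatocyte markers 0 were 2-fold different at 5 and 10 weeks and 2 were lower at 15 weeks (Tat at -1.67 and G6pc at -1.05 on the log2 scale), with a summed signal of 8210, 6990, 7680 and 5060 at 0, 5, 10 and 15 weeks. Of 8 stellate cell markers 2 were lower at 5 weeks, 4 were lower at 10 weeks, and 5 were higher and 1 lower at 15 weeks. Acta2, a contractile protein, had the lowest log2 difference, -4.27 at 10 weeks, and Col3a1, a collagen, the highest, 2.26 at 15 weeks. The summed endothelial markers lay between 71.7 and 99.6, with 0 of 6 markers 2-fold different at any time. Of 5 bile duct markers 1 was higher and 1 lower at 5 weeks, 0 higher and 2 lower at 10 weeks, and 2 higher and 1 lower at 15 weeks, with sums of 10.8, 12.4, 3.36 and 13.5 and differences between -3.77 (Krt19 at 10 weeks) and 4.05 (Krt7 at 5 weeks). Of 5 adipocyte markers only Cfd was well above background at all times, and it differed from 0 weeks by 4.21, 4.37 and 3.88 on the log2 scale, while adiponectin (Adipoq), Plin1 and Retn were well above background at 5 weeks alone and leptin (Lep) at no time. The 5-week array, on which Sqle, Cyp51 and Idi1 were highest, thus had 4 of 5 adipocyte markers above background, and each other array had 1. The part of cell makeup in the differences of the cholesterol genes was not tested.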

How the data were processed

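Liver RNA of 4 time points was read on 1-colour Agilent arrays, 1 per time. Per the file headers, the authors' scanner files were made with Agilent Feature Extraction 10.7.3.1, and their deposited intensity is a processed signal after background correction, not scaled between arrays. The authors' deposited value table holds the same intensity divided by each array's median (12.67 to 15.73) and was used as an alternative. Control spots and outlier-flagged spots were left out, each array was divided by its 75th percentile (193.7 to 271.6), log2 was taken and repeat spots were averaged. The brightest probe stood for a gene. Probes were named through RefSeq GRCm38.p6, with 27509 matched on their accession, 3549 on a current symbol and 404 on a former one; the remaining 24219 carry the name in the file. Probe positions are those of the files (mm9), and exon annotation was not used here.

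A gene was measured when well above background on both arrays and called at 2-fold. For a gene not above background on 1 array, a rough limit was set against the lowest signal well above background on that array. It is not a strict bound. A spot was marked as locally bright when at least 5 of its 44 neighbours exceeded their 4-array median by over 1 on the log2 scale. With 1 array for each time no test was possible. The comparison script was tested on simulated data. Alternatives were other scalings, normexp with an offset of 50 and quantile normalization (limma 3.58.1, R 4.3.3), no background filter, a 1.5-fold threshold, other probes and locally bright spots left out. Spike-in scaling was added after seeing the data. Tables were made with Python 3.11.15, numpy 2.4.6 and pandas 2.3.3.

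All 30 members are named, and of the sterol, SREBP1 and clock lists the genes at least 2-fold different from 0 weeks. Outside this rule, Msmo1, Apoe, Nceh1, Abca1 and Lipa of the sterol list are named though within 2-fold. Ch25h is named though it was not above background at 0 weeks. Marker lists are given by counts and sums, with a few genes picked after their values were seen. The members and lists were chosen with earlier results of these data known.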

Additional observations from a re-analysis of the deposited data

How the results depend on the processing

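No paired analysis was possible because each time point has 1 array, and leaving out an array leaves no comparison. Of the 20 differences of at least 2-fold against 0 weeks, 12 stayed at least 2-fold under every setting that gave a value and 0 changed sign. Several settings could not change the value of a gene read from 1 probe, such as Sqle, Cyp51, Idi1, Fdps or Aacs. The count of 12 therefore does not measure stability. Of 225 values of gene counts and group medians under other settings, 34 moved by more than the spot error of 0.0945 on the log2 scale, or 1.5 times for a count. The value labelled as reversed was 1, the esterification median at 15 weeks, which turned its sign between values beyond that error. Medians with a value within that error also turned sign in some settings. These were SREBP2 control at 10 and 15 weeks, esterification at 10 weeks, and uptake and transport at 5 weeks. The cause was not tested except where named. Some of the 225 could not move, so their number does not measure stability. Scaling to the array median or detected probes shifts all genes of an array alike and leaves relative medians unchanged. The deposited values are the same signal rescaled. With a 1.5-fold threshold, 10 members differed at 5 weeks and 10 at 15 weeks, against 6 and 6 at 2-fold. Of all measured genes, 12.1% and 28.5% passed 1.5-fold at these times, and the members had 9 higher and 1 lower at 5 weeks and 6 higher and 4 lower at 15 weeks. The relative median of all members at 15 weeks (0.23) was 0.36 with quantile normalization, 0.49 without the background filter and 0.13 with the second brightest probe, and at 5 weeks (0.27) it was 0.17 without the filter.

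Without the background filter, the median of all genes was itself 0.08 at 5 weeks and -0.42 at 15 weeks, beside -0.02 and -0.25 with it. Every relative median shifts with that median. The segment medians at 5 weeks were then 0.23 for mevalonate, 1.31 for isoprenoid, 0.28 for squalene and sterol, 0.08 for SREBP2 control and -0.02 for uptake and transport. At 15 weeks they were 0.84, 1.11, 0.23, 0.06 and 0.60. The esterification median turned to 0.26 there, as Soat1 entered and the median of all genes was lower. That median was -0.04 with quantile normalization and -0.06 with normexp.

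The mevalonate median at 10 weeks was 0.43 with normexp, and 0.95 both with the second brightest probe and with locally bright spots left out. At 15 weeks it was 0.48 with the mean of probes, and 0.79 both with the second brightest probe and without locally bright spots. The squalene and sterol median was 0.49 at 5 weeks with the second brightest probe, and 0.47 at 10 weeks and 0.34 at 15 weeks with the mean of probes. The SREBP2 control median was 0.34 at 5 weeks with the second brightest probe. The uptake and transport median was -0.04 at 5 weeks without locally bright spots and 0.41 at 10 weeks with the mean of probes. At 15 weeks it was 0.28 with normexp, 0.29 with the mean of probes, 0.20 with the second brightest probe and 0.14 without locally bright spots. Precision is limited by having 1 array for each time, and signal over background limits Soat1, which was well above it on 1 array.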
